A study of Mus musculus with 48 samples.

Results

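The SLC25 family of membrane carriers was followed through adipogenesis of 3T3-L1 cells, a mouse embryonic fibroblast line that forms adipocytes in culture, with and without knock down (KD) of the nuclear receptor PPARγ. Members were all probes whose array symbol was SLC25A followed by a number, which gave 48 probes under 38 gene symbols among 24613 probes under 18991 symbols on the array. Cells were transfected with 50 nM of either pooled PPARγ-specific siRNA or a pooled non-targeting control siRNA, grown to confluency, treated for 48 h with dexamethasone (0.25 µM) and isobutylmethylxanthine (IBMX, 0.5 mM), and then for another 48 h with the PPARγ ligand rosiglitazone (1 µM) and insulin (5 µg/ml). Both siRNA groups had the whole differentiation protocol, so all 48 cultures carried an siRNA and the groups differed only in its target. RNA was taken on days -2, 0, 1, 2, 3, 4, 5 and 6, with day 0 the addition of rosiglitazone, and 3 biological replicates per siRNA and day were hybridised to Illumina mouse bead arrays. The cells were a single established line and no untransfected culture was analysed here.

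SLC25 proteins are the main solute carriers of the inner mitochondrial membrane. Each carries a narrow set of substrates, such as adenine nucleotides, phosphate, carboxylates, amino acids or cofactors, usually exchanging one for another across the membrane. In fat cells they connect mitochondrial and cytosolic metabolism. Citrate leaves through the citrate carrier and is split in the cytosol to acetyl-CoA, the building block of fatty acids, while malate, aspartate and glutamate move on related carriers that carry reducing equivalents and carbon. PPARγ, with its partner RXR, binds DNA and is required for adipocyte formation.

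Values below are log2 signals after background correction and scaling, and each log2 difference subtracts the control siRNA signal from the PPARγ KD signal, which makes it negative where the KD was lower. A difference was called at an adjusted p of at most 0.05, in limma with replicate number as a block and Bonferroni correction over all 24613 probes. A probe counted as above background on an array at a detection p below 0.01. Where a gene had several probes, the one with the highest mean signal stood for it.

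PPARγ mRNA itself, read by probe 6130632, was lower in the KD in 24 of 24 replicate pairs, with a mean log2 difference of -2.34 (SE 0.04, adjusted p = 9.48e-34). All 7 adipocyte markers examined were lower in the KD, and their summed linear signal on days 4 to 6 ranged from 65824 to 104374 in control cultures and from 3640 to 17097 in KD cultures. All 6 fibroblast markers were above background, 3 of them higher in the KD, and the 13 markers of leukocytes, endothelium, epithelium and skeletal muscle were above background on no array. The adipocyte markers were thus lower over all days, and in summed signal on days 4 to 6, in the cultures that gave the carrier differences. Marker differences on single days are not given here. Whether fewer cells had differentiated or each cell held less of the mRNA cannot be told apart in RNA of whole cultures, and the part of the differentiation state in any carrier's difference was not tested. Between 33.4% and 40.4% of probes were above background on an array, with the arrays of replicate 3 at 33.4% to 35.4%.

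Of the 38 carrier genes, 20 were above background on all 48 arrays, 9 on some and 9 on none. The 9 that were never above background were Slc25a16, Slc25a18, Slc25a20, Slc25a21, Slc25a23, Slc25a31, Slc25a40, Slc25a41 and Slc25a46. They include the carnitine-acylcarnitine carrier Slc25a20, which brings fatty acids into mitochondria as acylcarnitines, and the testis-enriched adenine nucleotide carrier Slc25a31. A signal that was not above background sets no level for the mRNA, and none of these 9 was called in any comparison.

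Over all days, 13 carrier genes (14 probes) were lower in the KD, against 6.74% of all probes, and 5 carrier genes were higher, against 6.37%. As a share of the 48 member probes these were 29.2% and 10.4%. All 19 called probes lay among the 32 member probes above background on 3 or more arrays, where 15.1% of all such probes were lower and 14.5% higher. The median log2 difference over the 48 member probes was -0.05, and over all probes -0.03. The member median includes 16 probes that were above background on no array, so it does not describe the measurable members alone. Of the 32 member probes above background on 3 or more arrays, 19 were called, 14 lower and 5 higher. The share of these members that was higher was thus near that among all such probes. Among the lower genes, in order of size, were Slc25a10, Slc25a22, Slc25a1, Slc25a33, Slc25a25, Slc25a44, Slc25a5, Slc25a35, Slc25a26, Slc25a11, Slc25a15 and Slc25a39. The higher genes were Slc25a37, Slc25a24, Slc25a30, Slc25a27 and Slc25a14.

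**Figure D1:**
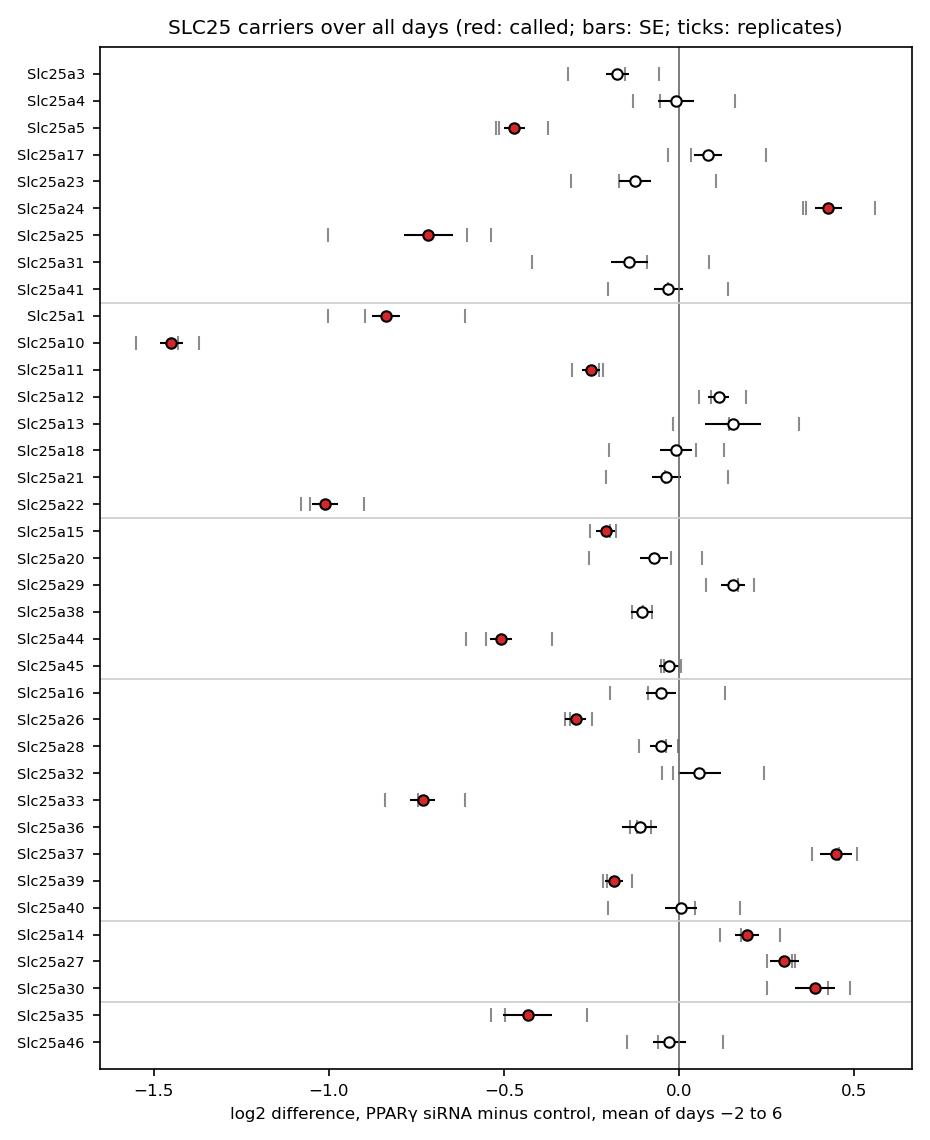
Log2 difference between PPARγ siRNA and control siRNA averaged over days -2 to 6 (horizontal axis) for 37 carrier genes (vertical axis, grouped by substrate class between grey lines). Points are the fitted difference with its SE, red where called, and grey ticks are the 3 replicates; Slc25a10 lies farthest to the left at -1.45 and Slc25a37 farthest to the right at 0.45.

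The carriers of di- and tricarboxylates, oxoglutarate, aspartate and glutamate held the most strongly affected members, with 4 of 8 genes lower and none higher. Slc25a10, the dicarboxylate carrier that exchanges malate or succinate for phosphate, had the largest difference of the family. On day -2 its control replicates read 9.53, 9.34 and 9.45 and its KD replicates 9.50, 9.64 and 9.42. By day 6 the controls read 11.63, 11.80 and 11.76 and the KD cultures 9.64, 9.75 and 9.79. The groups overlapped at the start, and from day 0 onward every KD replicate lay below every control replicate. The mean difference over all days was -1.45 (SE 0.03, adjusted p = 4.02e-29), 2.73-fold lower, and it was negative in 23 of 24 pairs.

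Slc25a1, the citrate carrier, followed the same order. Its control replicates read 9.55, 9.59 and 9.34 on day -2 and 11.22, 11.29 and 10.90 on day 5. Its KD replicates read 9.71, 9.66 and 9.57 on day -2 and 9.66, 9.69 and 9.64 on day 5. By day 5 the controls were above their starting values and the KD cultures were back within theirs, after lower values on day 0 (9.28, 9.03 and 9.25) and higher ones on day 2 (9.99, 9.78 and 9.81). The groups did not overlap from day 0 to day 6. The difference over all days was -0.84 (SE 0.04, adjusted p = 1.42e-17).

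Slc25a22, a mitochondrial glutamate carrier, was lower in 24 of 24 pairs and the one called member whose groups were apart on every day, day -2 included (controls 8.01, 8.10 and 7.77, KD 7.62, 7.66 and 7.61). Its difference over all days was -1.01 (SE 0.04, adjusted p = 7.48e-22), although the day -2 difference alone did not pass the threshold. Slc25a11, the oxoglutarate-malate carrier, was lower by a smaller amount, -0.25 (adjusted p = 2.47e-07), in 21 of 24 pairs. This call was lost without scaling between arrays and without replicate 1. The second Slc25a11 probe, also above background on all 48 arrays, was -0.11 and not called. It was lower in 15 of 24 pairs. The aspartate-glutamate carriers of the malate-aspartate shuttle were not called, with differences of 0.11 for Slc25a12 and 0.16 for Slc25a13.

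Promoter windows are shown for Slc25a10 and Slc25a1, as the carboxylate carriers with the largest late differences, and for Slc25a33, the pyrimidine nucleotide carrier described below, because all 3 mRNAs were lower in the KD on days 4 to 6 and their windows differ in the motifs they hold. Each is a window of 300 bases around an annotated RefSeq transcript start, most of it upstream, written 5′ to 3′ on the gene's strand in build GRCm38.p6. They lie at chr11:120491587-120491886 on the plus strand (Slc25a10), chr16:17928170-17928469 on the minus strand (Slc25a1) and chr4:149774218-149774517 on the minus strand (Slc25a33). Capitals mark the GC box GGGCGG and the E-box CACGTG, on either strand.
Slc25a10: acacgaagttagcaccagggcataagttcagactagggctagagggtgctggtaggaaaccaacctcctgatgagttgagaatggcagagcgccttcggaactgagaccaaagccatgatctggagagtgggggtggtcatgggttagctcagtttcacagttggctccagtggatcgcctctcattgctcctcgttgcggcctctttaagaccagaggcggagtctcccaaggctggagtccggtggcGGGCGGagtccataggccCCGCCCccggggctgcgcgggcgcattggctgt
Slc25a1: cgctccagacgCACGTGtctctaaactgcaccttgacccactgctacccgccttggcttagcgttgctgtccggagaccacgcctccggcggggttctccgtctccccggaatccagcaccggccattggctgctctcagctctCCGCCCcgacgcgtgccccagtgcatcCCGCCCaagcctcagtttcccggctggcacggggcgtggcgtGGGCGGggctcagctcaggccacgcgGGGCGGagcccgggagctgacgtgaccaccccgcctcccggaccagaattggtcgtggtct
Slc25a33: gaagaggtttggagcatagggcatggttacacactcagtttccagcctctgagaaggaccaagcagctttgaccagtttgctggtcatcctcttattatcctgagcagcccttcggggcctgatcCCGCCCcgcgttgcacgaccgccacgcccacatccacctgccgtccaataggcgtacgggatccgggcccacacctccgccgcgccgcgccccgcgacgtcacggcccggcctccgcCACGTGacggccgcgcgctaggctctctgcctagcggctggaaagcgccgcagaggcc
The Slc25a10 window holds GC boxes and no E-box, and the other two hold both. Windows were found for 29 of the 38 carrier genes, 38 windows in all. Windows of the same gene can overlap, as in Slc25a14 and Slc25a23, so the same motif can be counted more than once. Searched on both strands, GGGCGG was in 32 of the 38 carrier windows (84.2%) and in 35.7% of all 32851 windows of that length, and CACGTG was in 8 (21.1%) and in 7.15%. The core motif of PPAR/RXR sites, AGGTCA, was in 2 (5.26%) and in 16.3%, and its direct repeat with a 1-base spacer (DR1) was in 0 and in 0.0396%. These counts describe the letters of short windows next to transcript starts, and only exact matches. The study's own motif at joint PPARγ and RXR sites lacked the consensus T in its left repeat, and such variants were not counted. The binding sites mapped in the study were not compared, and binding at these genes was not tested here.

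Among the carriers of adenine nucleotides, phosphate and coenzyme A, 2 of 9 genes were lower and 1 was higher. Slc25a5, the adenine nucleotide translocase ANT2 that exchanges ADP for ATP, read 14.40, 14.30 and 14.18 in the day 6 controls and 13.62, 13.69 and 13.58 in the KD cultures. The groups lay apart on day -2 and on each day from day 1 to day 6, and the difference over all days was -0.47 (SE 0.03, adjusted p = 1.02e-13). The related translocase ANT1, Slc25a4, differed by -0.01 and was not called, and the phosphate carrier Slc25a3 by -0.18 (adjusted p = 0.119).

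The calcium-regulated ATP-Mg/phosphate carriers of this class went in opposite directions. Slc25a25 read 8.17, 8.23 and 7.55 in the day 2 controls and 6.69, 6.89 and 6.23 in the KD cultures, and was -0.72 over all days (SE 0.07, adjusted p = 3.39e-08). It was a dim probe, above background on 29 of 48 arrays, with replicate 3 below the others. Slc25a24 read 9.25, 9.12 and 8.74 in the day 2 controls and 10.43, 10.51 and 9.66 in the KD cultures, and was 0.43 over all days (SE 0.04, adjusted p = 4.63e-09). It was higher in the KD in 22 of 24 pairs, with groups fully apart on days 1 and 2, and the call over all days was lost without the replicate block.

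Of the 6 carriers of carnitine and amino acids, 2 were lower and none was higher over all days. Slc25a44, linked to mitochondrial uptake of branched-chain amino acids, read 9.80, 9.70 and 9.98 in the day 6 controls and 9.02, 9.11 and 9.46 in the KD cultures. It was -0.51 over all days (SE 0.03, adjusted p = 3.52e-14), and its groups lay apart from day 2 onward. The ornithine carrier Slc25a15 was -0.21 (adjusted p = 5.03e-05), a call lost without scaling between arrays and without replicate 3, and its dim second probe was not called.

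Of the 10 carriers of cofactors, pyrimidine nucleotides, metals and glutathione, 4 were lower and 1 was higher. Slc25a33, a pyrimidine nucleotide carrier, read 9.45, 9.55 and 9.28 in the day 2 controls and 7.89, 7.94 and 7.55 in the KD cultures. It was -0.73 over all days (SE 0.04, adjusted p = 3.29e-17), and from day 2 onward all KD replicates were below all controls. The order was the opposite on day -2, when the KD cultures (7.71, 7.77 and 7.92) lay above the controls (7.38, 7.46 and 7.56), a difference that was not called. Its relative Slc25a36 differed by -0.11 and was not called.

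The S-adenosylmethionine carrier Slc25a26 was -0.30 over all days (adjusted p = 2.04e-07), with its groups apart from day 1 to day 5. Slc25a39, a carrier linked to mitochondrial glutathione, was -0.19 (adjusted p = 6.46e-04), a call that was lost without scaling between arrays, without the replicate block, and without replicate 1 or replicate 3. The mitoferrins, which bring in iron, did not move alike: Slc25a37 (mitoferrin 1) was 0.45 in the other direction (SE 0.05, adjusted p = 3.25e-07) and higher in the KD in 23 of 24 pairs, while Slc25a28 (mitoferrin 2) differed by -0.05 and was not called. On day 1 the Slc25a37 controls read 6.74, 6.94 and 6.74 and the KD cultures 7.81, 7.86 and 7.75.

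All 3 member carriers that resemble uncoupling proteins were higher in the KD over all days. The uncoupling protein Ucp2, which the rule by symbol left out, went the other way (-0.76, lower in 24 of 24 pairs). Ucp1 and Ucp3 were above background on no array. Slc25a30 was 0.39 (adjusted p = 0.00111), Slc25a27 0.30 (adjusted p = 4.5e-04) and Slc25a14 0.19 (adjusted p = 0.0323), each in at least 21 of 24 pairs. The Slc25a27 groups lay apart on each day from day 1 to day 6. In Slc25a30 the replicates were widely spread, as in the day 4 controls of 6.61, 6.90 and 7.83 against KD values of 7.25, 7.05 and 8.11, where groups overlapped although each KD replicate was above the control of its own number. These 3 calls were lost without scaling between arrays, without the replicate block and when any 1 replicate was left out. Slc25a35, a carrier whose substrate is not settled, was -0.43 (adjusted p = 0.00831) and was above background on 9 control arrays and 2 KD arrays. Its call was lost without scaling between arrays, without the replicate block, and without replicate 1 or replicate 2.

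Day by day, no member was called on day -2, when 0.861% of all probes were. Few members were called on days 0 and 1, and the count was highest on day 2. On day 0 the one call was Slc25a29, a carrier of basic amino acids, which read 6.59, 6.50 and 6.81 in controls and 7.33, 7.12 and 7.47 in the KD, a difference of 0.68 (adjusted p = 5.18e-04), while 1.67% of all probes were higher and 1.37% lower. On day 1, 3 probes were lower (1.49% of all probes) and 2 higher (1.42%). On day 2, 12 probes were lower (4.18%) and 3 higher (4.74%). On day 3, 9 were lower (2.29%), on day 4, 8 (2.13%), on day 5, 10 (2.68%) and on day 6, 8 (3.09%). From day 3 onward no member was called higher, against 0.475% of all probes on day 3, 0.272% on day 4, 0.565% on day 5 and 0.796% on day 6, while 4 members were higher at an unadjusted p under 0.05 on each of these days in limma. Slc25a10 and Slc25a1 were called on every day from day 1, and Slc25a5, Slc25a22, Slc25a33 and Slc25a44 on every day from day 2.

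**Figure D2:**
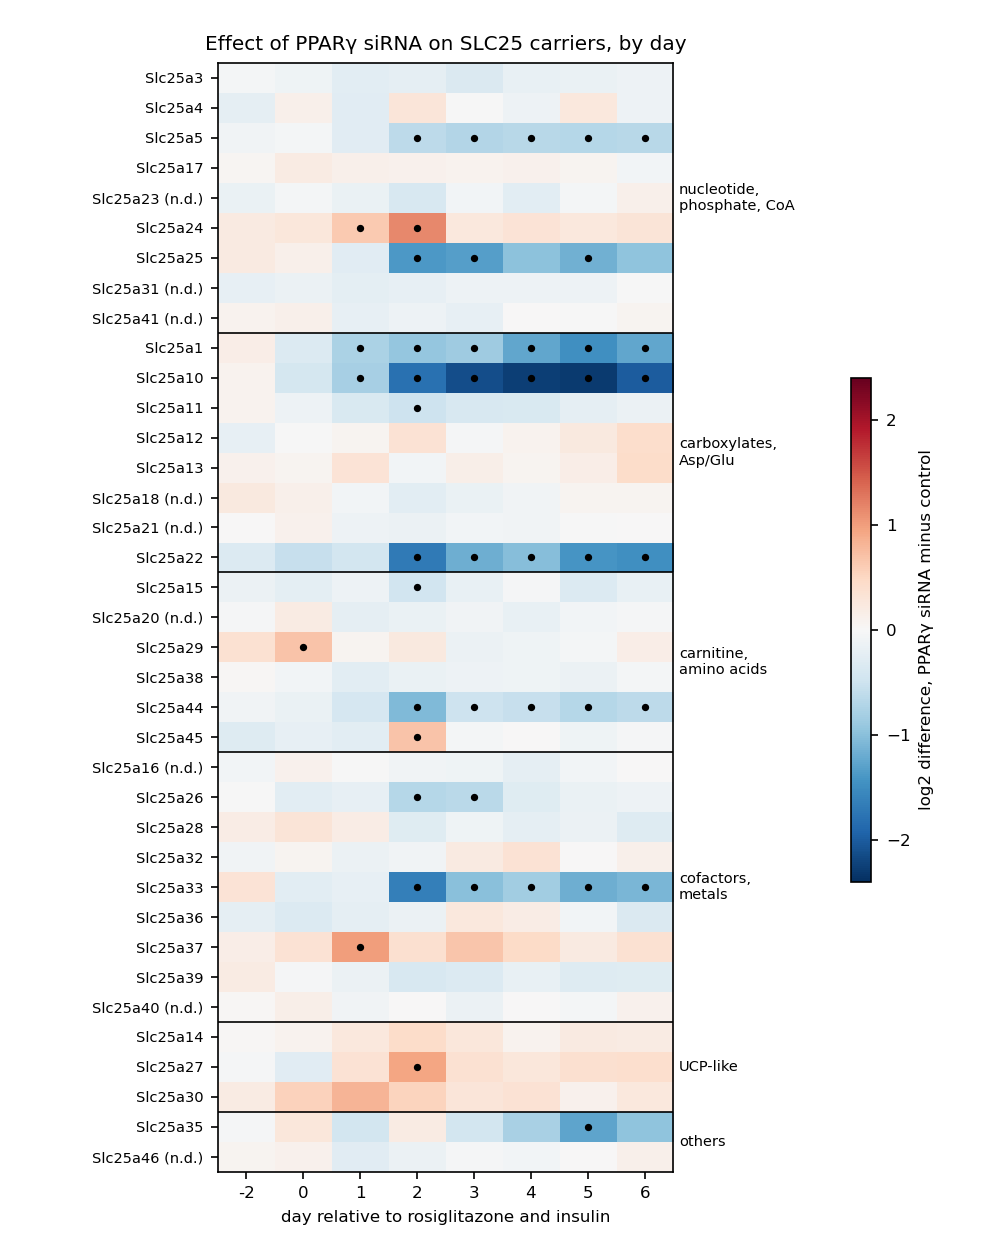
Log2 difference between PPARγ siRNA and control siRNA (colour, blue lower and red higher in the KD) for 37 carrier genes (rows, by substrate class) on each of the 8 days (columns). Dots mark called differences and n.d. marks the 9 genes above background on no array; the column for day 2 holds the most dots, and no red cell has a dot after day 2.

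Some members were called on 1 or 2 days only. Slc25a11 and Slc25a15 were called on day 2 only, at -0.50 and -0.46, and Slc25a26 on days 2 and 3, at -0.69 and -0.65. Slc25a27 was called on day 2 only, at 0.94, with controls of 6.78, 6.67 and 6.72 and KD values of 7.98, 7.73 and 7.30. Slc25a45, which was -0.03 and not called over all days, was 0.68 higher on day 2 (adjusted p = 9.86e-06), with controls of 8.33, 8.25 and 8.55 and KD values of 8.96, 8.98 and 9.24. The groups of Slc25a27 and Slc25a45 did not overlap on that day.

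Day 2, when insulin and rosiglitazone had been present for 48 h, also stood out within the control course. Relative to the mean of days 1 and 3, 7 carrier genes (8 probes) were more than 1.5-fold higher in control cultures on day 2 and 3 were more than 1.5-fold lower, against 2.36% and 2.97% of all probes. The higher genes included Slc25a33 (0.94 on the log2 scale), Slc25a22 (0.82), Slc25a10 (0.72), Slc25a1 (0.66), Slc25a25 (0.62) and Slc25a44 (0.60), and the lower ones were Slc25a27 (-0.86), Slc25a45 (-0.77) and Slc25a24 (-0.67). In KD cultures the same measure was 0.54 for Slc25a1 and 0.39 for Slc25a10, below the 1.5-fold line (0.585) but in the same direction, and between -0.09 (Slc25a33) and 0.04 (Slc25a25) for Slc25a22, Slc25a25, Slc25a33 and Slc25a44. It was -0.27 for Slc25a27, 0.07 for Slc25a45 and 0.04 for Slc25a24. By the 1.5-fold line 0 members were higher in the KD, against 1.09% of all probes, and 1 probe was lower, against 0.553%. These day 2 counts are a description chosen after the values were seen, and carry no test.

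**Figure D3:**
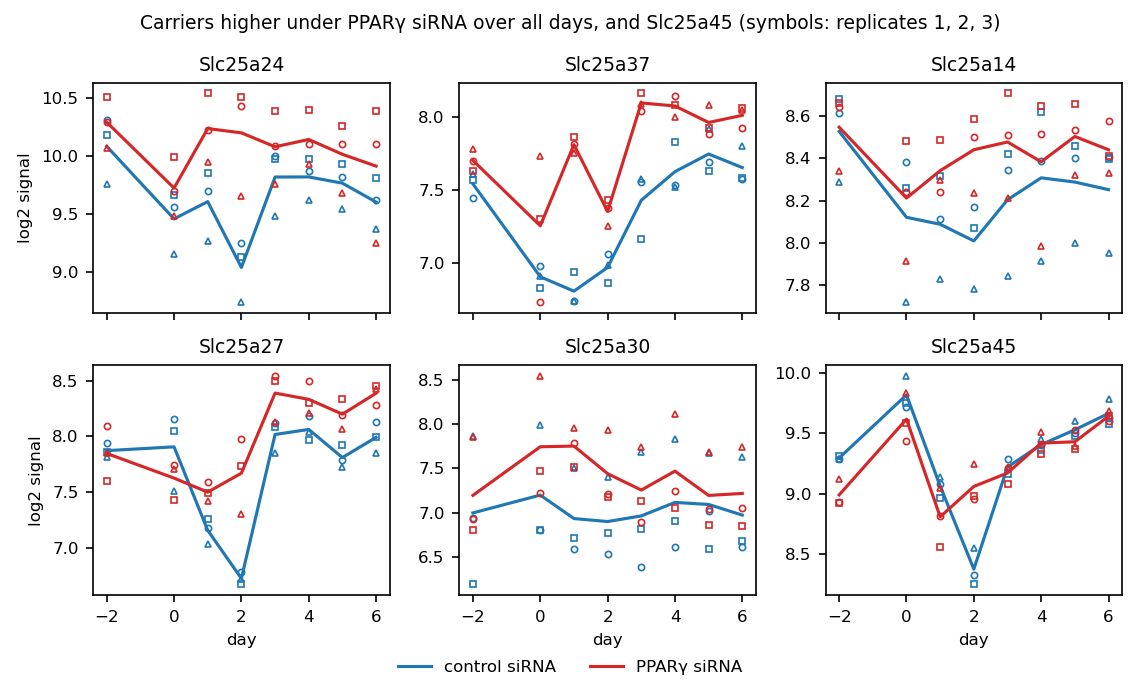
Log2 signal (vertical axis) by day (horizontal axis) of the 5 carriers higher under PPARγ siRNA over all days and of Slc25a45, in control siRNA (blue) and PPARγ siRNA (red) cultures. Lines join means of 3 replicates and circles, squares and triangles are replicates 1, 2 and 3; control cultures dip on day 2 in Slc25a24, Slc25a27 and Slc25a45, where the red points lie above.

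On days 4 to 6, fitted on the 18 arrays of those days alone, 9 carrier genes (10 probes) were lower in the KD, against 3.77% of all probes, and 0 were higher, against 1.54%. Among probes above background on 3 or more arrays, 8.48% were lower and 3.54% higher. At an unadjusted p under 0.05 in the same limma fit, 6 probes were higher. The differences included -2.19 for Slc25a10 (SE 0.06, adjusted p = 3.72e-13), -1.32 for Slc25a1, -1.30 for Slc25a22, -1.03 for Slc25a25, -1.03 for Slc25a33, -1.003 for Slc25a35, -0.67 for Slc25a5 and -0.62 for Slc25a44. For Slc25a10 this was a 4.55-fold lower signal, and the 3 replicates gave late differences between -2.25 and -2.07. Slc25a35 read 7.35, 7.28 and 6.55 in the day 5 controls and 6.00, 5.68 and 5.71 in the KD cultures. None of these KD cultures was above background, and 2 of the 3 controls were. With all 3 controls taken at their readings, the control mean was at least 1.43-fold higher. Slc25a25 in the day 5 controls, of which 2 of 3 were above background, was at least 1.64-fold higher by the same measure. Its late call was lost without replicate 2 and without the replicate block, the late Slc25a35 call also without replicate 1, and the late Slc25a44 call without replicate 1 or replicate 2.

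**Figure D4:**
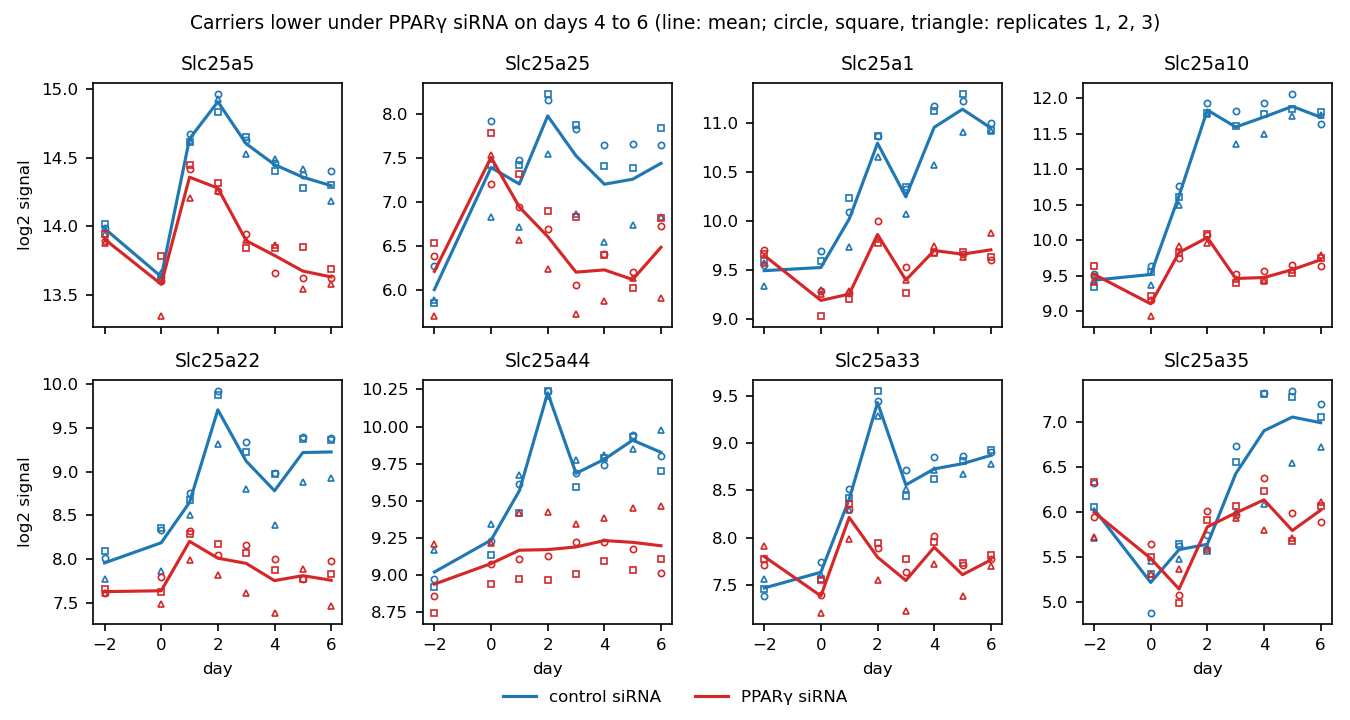
Log2 signal (vertical axis) by day (horizontal axis) of 8 carriers lower under PPARγ siRNA on days 4 to 6, in control siRNA (blue) and PPARγ siRNA (red) cultures. Lines join means of 3 replicates and circles, squares and triangles are replicates 1, 2 and 3; the 2 groups start together on day -2 in most panels, and Slc25a10 ends near 11.7 in controls and 9.7 in the KD.

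The fitted effect of PPARγ siRNA was more negative on days 4 to 6 than on days 0 to 2 in 4 members, against 2.82% of all probes, and none changed the other way, against 0.813%. Slc25a10 went from -1.001 early to -2.19 late, a change of -1.18 (SE 0.08, adjusted p = 2.43e-13). Slc25a1 went from -0.68 to -1.32 (change -0.65, adjusted p = 8.73e-04). Slc25a35 was also called (change -1.01, adjusted p = 0.00644), but neither group was above background on any array of days 0 to 2, nor were most KD arrays on days 4 to 6, so this change has no measured size. For Slc25a5, Slc25a22, Slc25a25, Slc25a33 and Slc25a44 the change from early to late was not called. The change of Slc25a10 alone was called under every alternative tried, and leaving out replicate 1 or replicate 2 left it as the only one.

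**Figure D5:**
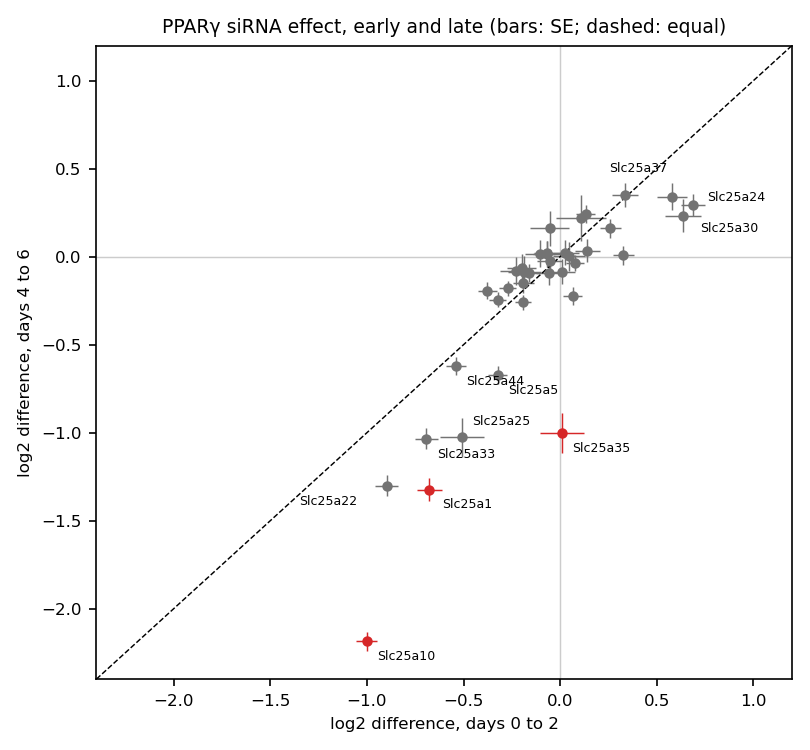
Fitted log2 difference between PPARγ siRNA and control siRNA on days 0 to 2 (horizontal axis) and on days 4 to 6 (vertical axis) for 37 carrier genes, with SE bars. The dashed line marks equal effects and red points the 3 plotted carriers whose late effect differed from the early one, of which Slc25a10 lies lowest at -1.001 early and -2.19 late.

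The course without knock down was read from the control cultures. Over the 8 days, 21 member probes (20 genes) changed in the control cultures (limma F-test), against 23.5% of all probes, and 12 changed in the KD cultures, against 16.5%. All of these lay among the 32 member probes above background on 3 or more arrays. The share over all such probes is not given for the tests over time, on single days or of late minus early. The shares beside those counts include the many probes that were not above background. From day -2 to day 6, 7 genes (8 probes) rose in control cultures, against 4.11% of all probes, and 0 fell, against 2.14%, with 3 lower at an unadjusted p under 0.05. Slc25a10 rose by 2.29 on the log2 scale (4.89-fold, adjusted p = 4.75e-20), Slc25a1 by 1.45, Slc25a25 by 1.44, Slc25a33 by 1.40, Slc25a22 by 1.27 and Slc25a44 by 0.81. The Slc25a25 call was lost without scaling between arrays, without the replicate block and without replicate 2 (0.83 to 1.69 over the alternatives). Slc25a25 was above background on none of the day -2 controls and on 2 of the 3 day 6 controls. With all 3 day 6 controls taken at their readings, its rise was at least 2.06-fold. The median of all probes over this interval was 0.095 as scaled here and -0.05 without scaling. This median includes the many probes that were not above background, so it does not measure how far scaling moved the carriers.

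In KD cultures the same interval gave 2 member probes that rose, against 2.49% of all probes, and 0 that fell, against 1.92%, with 2 lower at an unadjusted p under 0.05. These were the aspartate-glutamate carrier Slc25a12, 8.67, 8.75 and 8.79 on day -2 and 9.37, 9.57 and 9.09 on day 6 (0.60, adjusted p = 5.89e-04), and Slc25a45, 8.93, 8.92 and 9.12 and then 9.60, 9.64 and 9.68 (0.65, adjusted p = 3.34e-05). The rise itself differed between the siRNA groups in 5 genes, each with a smaller rise in the KD (2.09% of all probes, with 0.902% the other way), among them Slc25a10 (-2.09), Slc25a33 (-1.44), Slc25a1 (-1.40) and Slc25a22 (-1.14). For Slc25a12 and Slc25a45 the difference between the rises was not called. These comparisons share the day 6 and day -2 cultures with the daily differences above.

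Genes that work beside the carriers were read from lists of the same pathways, beside the 6.74% lower and 6.37% higher among all probes. Most listed genes were above background on 3 or more arrays, and among all such probes 15.1% were lower and 14.5% higher. In the citrate and pyruvate list, 9 of 10 genes were lower, among them pyruvate carboxylase Pcx (-2.02), the cytosolic aconitase Aco1 (-0.88) and the fatty acid synthase Fasn (-0.62), and the acetyl-CoA carboxylase Acaca was higher (0.29). The ATP citrate lyase Acly, which splits the citrate that Slc25a1 exports, was -0.29. For the carnitine shuttle, whose carrier Slc25a20 was not above background, 7 of 9 genes were lower, including the acyl-CoA synthetase Acsl1 (-3.28), Cpt2 (-0.81) and the dehydrogenases Acadm (-0.96) and Acadvl (-0.81). In the malate-aspartate and glycerol phosphate shuttles, 3 of 5 were lower, led by Gpd1 (-3.65), and the mitochondrial Gpd2 was higher (0.20). The remaining lower genes of this list were also counted in the citrate and pyruvate list.

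Of 18 genes of ATP synthase and adenine nucleotide handling, which work with Slc25a5, 10 were lower and 0 higher, such as the assembly factor Atpaf2 (-0.83). Of 11 genes of the machinery that imports carrier proteins, 7 were lower and 0 higher, with the small Tim chaperones Timm10 (-0.57) and Timm9 (-0.56) first. Of 14 iron-sulphur and haem genes, 8 were lower and 0 higher, among them Alas1 (-0.78) and Nfs1 (-0.51), while the mitoferrin 1 mRNA Slc25a37 was higher. Of 19 other mitochondrial membrane transporters, 9 were lower and 1 higher. The uncoupling protein Ucp2 was lower (-0.76), Ucp1 and Ucp3 were above background on no array, Brp44, a subunit of the pyruvate carrier, was -0.86, and Sfxn3 was higher (0.26). The voltage-dependent anion channels of the outer membrane, Vdac1 (-0.09), Vdac2 (0.02) and Vdac3 (-0.04), were not called.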

How the data were processed

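RNA from 48 cultures was measured on 48 Illumina MouseRef-8 arrays. The authors' table was exported from BeadStudio 3.3.7 and, per the file headers, holds mean bead intensities with no normalization, each with a detection value deposited as a fraction (1 minus the detection p) and a bead number (median 35 per probe). Intensities ran from 15.4 to 67066.3. The study itself used rank-invariant normalization and a 3-way analysis of variance that removed a batch effect, with Bonferroni correction. The batch is not named in the sources used here. Replicate number was taken as the block here, and the background correction and scaling below are not those of BeadStudio.

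Intensities were background corrected by normexp with the detection p-values (offset 16, limma 3.58.1, R 4.3.3). Each array was then scaled to the mean array by a median ratio, taken over probes of the 50th to 90th percentile of mean signal with ranks that moved by less than 0.05 of all probes (factors 0.73 to 1.58), and values were taken to log2. One mean per siRNA and day with replicate number as a fixed block was fitted to all 24613 probes with lmFit and eBayes, and days 4 to 6 also on their own 18 arrays. Time was tested with an F-test over days. The difference of courses between siRNAs was a contrast added after the data were seen. Probes with a detection p under 0.01 were called above background, and adjusted p-values are Bonferroni values over all probes with a threshold of 0.05. Replicates were labelled biological, and same-numbered control and KD cultures deviated together in 24 of 24 pairs (correlation 0.544 to 0.914 over 10567 probes above background on 3 or more arrays; over all probes 0.0239 to 0.901, lowest on day 0 in replicate 1). An offset shared by all arrays of a replicate number would also give such correlations, so they do not show that cultures were paired by day. No 2 replicates held identical values. The number of arrays limits the precision.

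Members, pathway lists and markers were chosen with earlier results of these data known. Values were given for members past Bonferroni correction over days -2 to 6 or days 4 to 6, or over days in control cultures with a day 6 minus day -2 difference above 1 on the log2 scale, each gene led by its brightest probe, and for up to 4 called genes of each pathway list with the largest differences. Slc25a12, Slc25a29, Slc25a45, Acly, Acaca and the uncalled or opposite members beside them were added after their values were seen. Gene names are the array's. Of genes with a current Slc25a symbol, 4 were present under older symbols (Slc25a47, Slc25a48, Slc25a51 and Slc25a54), outside the rule and not called. The rule by symbol also left out the uncoupling proteins, which were read among the other mitochondrial membrane transporters. Of these proteins, Ucp2 was called lower (-0.76), and Ucp1 and Ucp3 were above background on no array. Alternatives were quantile or no scaling, no background correction, offset 50, a filter on dim probes, Benjamini-Hochberg adjustment, no replicate block and leaving out each replicate. Simulated data were used to test the scripts. Figures were drawn with matplotlib 3.10.9. Counts cover all members and listed genes, and the values of a few of them, 1 carrier included, are not reported here or drawn in the figures.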

Additional observations from a re-analysis of the deposited data

Results flagged for a closer look

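In 4 carriers the effect of PPARγ siRNA on days 4 to 6 differed from that on days 0 to 2, by a limma test of the difference itself, and the values of 3 are given here. The late minus early log2 difference was -1.184 for Slc25a10 (probe 1400609), -0.646 for Slc25a1 (probe 4050402) and -1.011 for Slc25a35 (probe 4590341). In Slc25a10 and Slc25a1 the KD was already lower on days 0 to 2 and more so later. In Slc25a35 neither siRNA group was above background on days 0 to 2, so its early value sets no level and the change has no measured size.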

How the results depend on the processing

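No direction reversed among 400 single-probe values computed under 10 alternatives, of which 350 kept their call. All were values of probes already called, so Benjamini-Hochberg adjustment could not lose a call. That adjustment, the filter on dim probes and leaving out the block do not alter the fitted difference, so they could not reverse a direction. Over all days, 19 members were called, 12 without scaling between arrays and 13 to 15 when 1 replicate was left out. Of the 19 probes, 11 (10 genes) were called under every alternative, among them Slc25a1, Slc25a5, Slc25a10, Slc25a22, Slc25a25, Slc25a26, Slc25a33 and Slc25a44 as lower and Slc25a37 as higher. For days 4 to 6 the count was 10, 21 with Benjamini-Hochberg adjustment, and 7 to 10 without a replicate. Of these, 6 were called under every alternative. For change over days in control cultures it was 21, 12 without scaling and 12 to 16 without a replicate (12 without replicate 2). For late minus early it was 4, 2 without scaling, 13 with Benjamini-Hochberg adjustment, 1 without replicate 1 or replicate 2 and 5 without replicate 3. Over single days, 56 member and day pairs were called, 28 without scaling, 98 with Benjamini-Hochberg adjustment, and 30 to 43 without a replicate (30 without replicate 1, 32 without replicate 2). For day 6 minus day -2 in control cultures it was 8, 17 with Benjamini-Hochberg adjustment (14 higher and 3 lower) and 7 without any 1 replicate. Among all probes, 3227 were called over all days, 7605 with Benjamini-Hochberg adjustment, 1769 when replicate number was not a block and 1587 without scaling. It was 1759 with replicate 2 left out and 1821 with replicate 1 left out. On days 4 to 6 the counts were 1307, 5125 with Benjamini-Hochberg adjustment, 568 with no block, 560 with replicate 2 left out and 618 with replicate 1 left out. The cause of these differences was not tested.

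Without the replicate block the count of members was 13 over all days, of which 12 were lower and 1 was higher, 7 on days 4 to 6, 13 for change over days, 3 for late minus early, 37 over single days and 6 for day 6 minus day -2. A fit with the BeadChip as a block was not run, since the table used here holds no BeadChip identifiers. Carriers that are not above background have no measured level, and a difference in them could not be detected at this signal.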

Other observations

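Some carriers differed widely between replicate numbers in both siRNA groups. Slc25a4, the adenine nucleotide translocase ANT1, read between 7.73 and 8.27 on the 16 arrays of replicate 3 and between 10.71 and 11.78 on the 32 arrays of replicates 1 and 2, a gap of -3.15 on the log2 scale (-3.12 in control and -3.19 in KD cultures). It was above background on all 48 arrays, and it was the only member probe over 2 log2 units apart, against 2.44% of all probes above background on 3 or more arrays. Slc25a13, an aspartate-glutamate carrier, was above background on 28 of the 32 arrays of replicates 1 and 2 and on 0 of the 16 arrays of replicate 3. Slc25a30 went the other way, with replicate 3 higher by 0.91. The block keeps such offsets out of the differences reported above, and their source was not tested.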
